A study of Homo sapiens with 12 samples.

Results

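RNA-seq data on FDX2 loss at 3% O2 were available for 6 of the 12 libraries of the study, 3 from FDX2-iKO ES2 cells kept with doxycycline (Doxy) and 3 from the same cells without it. These 6 libraries were chosen by their labels (3% O2 + Doxy and 3% O2 wo Doxy), without use of any measured value. ES2 is a human ovarian cancer line. In the FDX2-iKO cells the endogenous FDX2 gene was disrupted with CRISPR-Cas9, and an HA-tagged, editing-resistant FDX2 cDNA was driven by a TRE promoter, with tTS and rtTA also introduced by lentivirus. All 4 groups of the study carried these alleles, so that Doxy kept FDX2 on and its withdrawal turned FDX2 off. Knockout cells were isolated as clones, and where the study does not state otherwise its results come from 1 of them. For the groups at 3% O2, cells were held with or without Doxy for 4 days at 20% O2 and then for 3 days at 3% O2. The groups at 20% O2 were cultured for 6 days. They served for contrast and were part of the joint fit, so p-values at 3% O2 also rest on their spread. The groups compared also differed in Doxy itself, and the effects of the drug and of FDX2 loss cannot be told apart.

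FDX2 is a mitochondrial ferredoxin that passes electrons to the complex in which iron-sulfur (Fe-S) clusters are built on the scaffold ISCU. Fe-S clusters serve as cofactors of respiratory chain subunits, of enzymes of the TCA cycle and of DNA replication and repair, and several clusters are destroyed by oxygen. Cells with defective mitochondria often induce the transcription factor ATF4, while low oxygen stabilizes HIF-1, which raises glycolytic and other hypoxia genes.

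Between 26716916 and 32919779 counts per library were assigned to genes with Doxy at 3% O2, and between 24958386 and 32435660 without it. The first library without Doxy stood apart, with 1.20% of its counts on antisense genes against 0.343% to 0.559% in the other libraries of the study. Replicates also differed in how their counts followed the GC content of transcripts. Across genes, which are not independent replicates, the deviation from the group mean had a rank correlation with GC content of −0.74, −0.68 and 0.79 in the libraries with Doxy, and of −0.45, 0.67 and −0.35 in those without. FDX2 itself had only 2, 4 and 12 counts with Doxy and 7, 7 and 5 without. Of its 1371 exonic bases, 972 (70.9%) are shared with AC011511.1 and AC011511.4, so these counts do not check the labels. Of 12 markers of ovarian carcinoma epithelium, 7 lay under 1 CPM (counts scaled to library size) in every library at 3% O2, EPCAM (at most 0.119 CPM) and CDH1 (at most 0.0397 CPM) among them, while KRT7 (459 to 550 CPM with and 484 to 556 CPM without Doxy), KRT8, KRT18 and PAX8 were detected. The 12 together summed to 1037 to 1257 CPM with and 1086 to 1215 CPM without Doxy, and of the 6 that were tested PAX8 had the lowest adjusted p (0.0787). All 6 blood cell markers were under 1 CPM. Of the 7 mesenchymal markers, which summed to 4203 to 5252 CPM with and 3900 to 4454 CPM without Doxy, CDH2 (log2 fold change 0.26), ZEB2 (0.30) and SNAI2 (0.34) were called higher, while VIM, which gave most of that sum (3266 to 4176 CPM with and 2776 to 3328 CPM without Doxy), was at −0.23 (adjusted p = 0.173) and ZEB1 at −0.12 (adjusted p = 0.401). The 6 fibroblast markers summed to 1346 to 1989 and 1852 to 2455 CPM, with DCN and LUM at 0 counts at 3% O2 and PDGFRA called higher (0.86). COL1A1 gave nearly all of this sum (1342 to 1985 CPM with and 1844 to 2447 CPM without Doxy) and was not called (adjusted p = 0.179). The 4 endothelial markers summed to 31.5 to 39.3 and 43.1 to 54.4 CPM, with PECAM1 and VWF under 0.2 CPM and CDH5 called higher (0.49). CDH2, ZEB2, SNAI2, VIM, ZEB1, PDGFRA, COL1A1 and CDH5 were named after their values were seen. CDH2 and CDH5 lost their calls when any of several libraries was left out (highest adjusted p = 0.131 and 0.121).

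**Figure D1:**
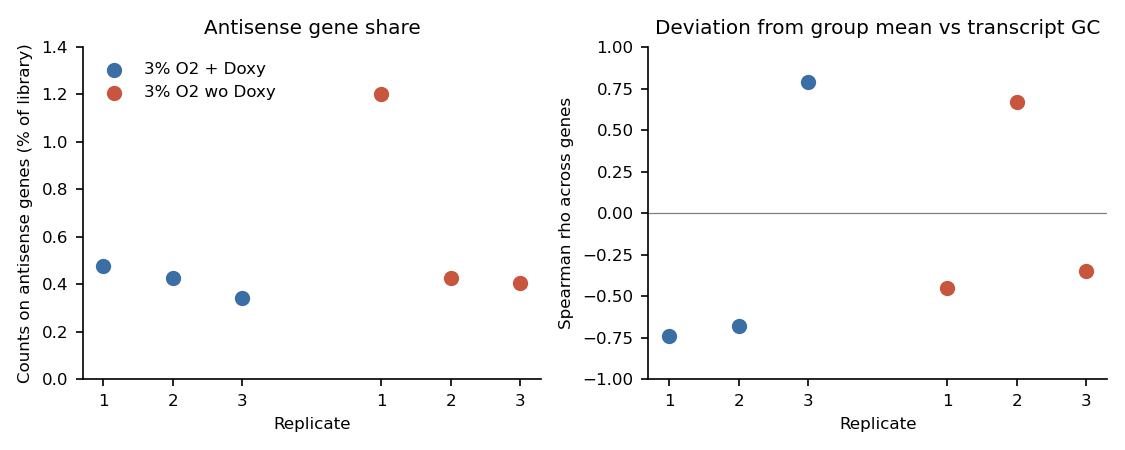
Each point is 1 library at 3% O2, by replicate and group. The left panel gives the percentage of its counts on antisense genes, where the first library without Doxy lies at 1.20%, and the right panel the rank correlation (Spearman) across genes between the deviation from the group mean and transcript GC content, from −0.74 to 0.79.

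Without Doxy at 3% O2, 1235 of the 16891 genes tested changed (7.31%) at an adjusted p under 0.05, 709 upward (4.20%) and 526 downward (3.11%), by the quasi-likelihood test of edgeR (Benjamini-Hochberg). All adjusted p-values are from this test. Of 6232 protein-coding genes with no exonic base shared with another gene, 642 changed (10.3%), 341 upward (5.47%) and 301 downward (4.83%). Changes were mostly small: the median absolute log2 fold change of the called genes was 0.39, and 118 (0.699%) changed at least 2-fold, 114 upward (0.675%) and 4 downward (0.0237%). Among the protein-coding genes without overlap, 55 rose and 4 fell at least 2-fold. Several of the genes that rose lay near the floor with Doxy, such as HES7 (mean 0.0813 CPM) and H2BC7 (0.124 CPM). Genes under the level of the low-count filter (0.338 CPM) with Doxy could pass it through libraries without Doxy, so these 2-fold counts are partly set by the filter. The 4 that fell had means of 0.604 to 1.20 CPM with Doxy. The median log2 fold change was 0.04 over all genes and −0.01 over these protein-coding genes. Replicate ranges of the 2 groups did not overlap in 4159 genes (24.6%).

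Of 1559 antisense genes tested, 41 (2.63%) were called, 38 upward, yet their median log2 fold change was 0.64. In 998 of them (64.0%) the highest of the 6 values was that of the first library without Doxy, against 13.1% of the protein-coding genes without overlap. Their median difference from the group with Doxy was 0.69 in that library and 0.04 and −0.04 in the others (log2 of CPM plus 0.5). When that library was left out, 886 genes were called in all, 566 upward and 320 downward, of which 287 and 172 were protein-coding without overlap. The count of called genes was also 650 and 581 without the first or the second library with Doxy, and 644 and 765 without the second or the third library without it. Without the third library with Doxy it was higher, at 1605. A bulk measurement cannot tell fewer cells of a kind from less RNA of a gene per cell.

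**Figure D2:**
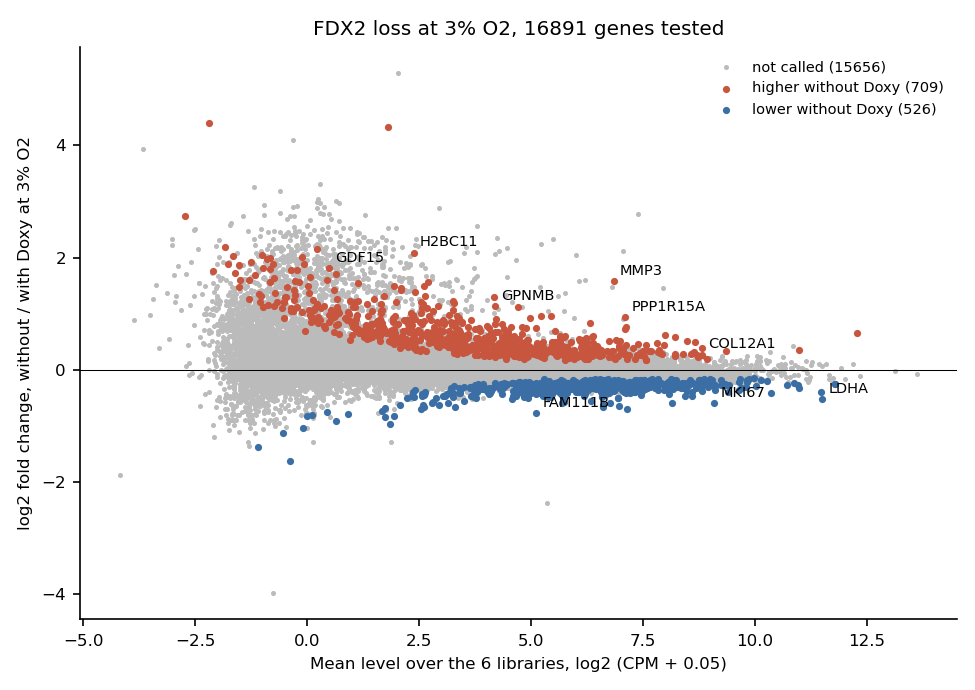
Each point is a tested gene, placed by its mean level over the 6 libraries at 3% O2 (log2 of CPM plus 0.05) and its log2 fold change without against with Doxy, with called genes in colour. Called genes lie on both sides of 0, 709 above and 526 below, and 4 of the lower ones reach a 2-fold change.

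The largest increases were led by histone genes. These increases were taken among called protein-coding genes without exon overlap and with a mean of at least 5 CPM. Replicate values of the 2 groups also had to lie apart, so that separation is no added evidence for the genes chosen. H2BC11, a replication-dependent histone H2B gene (GRCh38 chromosome 6, 27125897 to 27132750, minus strand), had 1.65, 2.18 and 2.04 CPM with Doxy and 7.09, 8.69 and 9.26 CPM without. The gene was 4.27-fold higher without Doxy (log2 2.09 ± 0.136 SE, adjusted p = 2.83e-05). H2BC5 rose 2.95-fold and H2AC6 2.44-fold. BMPER, which encodes an extracellular regulator of BMP signalling, rose from 3.51 ± 0.208 to 8.78 ± 0.584 CPM (SD, n = 3). VCAM1, a cell adhesion molecule induced in inflammation, rose from 3.63 ± 0.438 to 8.21 ± 0.737 CPM. GPNMB, a transmembrane glycoprotein found in lysosomal membranes (chromosome 7, 23235967 to 23275108, plus strand), had 11.4, 11.8 and 11.1 CPM with Doxy and 25.7, 23.8 and 25.6 CPM without. The fold of GPNMB was 2.19 (log2 1.13 ± 0.0792 SE, adjusted p = 3.90e-05). KRTAP4-9 (2.60-fold), the protocadherin PCDH7 (2.31-fold) and the phospholipase C gene PLCH2 (2.21-fold, adjusted p = 0.0269) also rose. KRTAP4-9 and the histone genes have close relatives, between which reads may be divided uncertainly. PLCH2 lost its call without the first or second library with Doxy or without the second or the third without it (highest adjusted p = 0.103), and the other genes named here kept theirs whichever of the 12 libraries was left out.

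The largest decreases, taken by the same limits, were smaller in size. FAM111B, a protease linked to DNA replication (chromosome 11, 59107185 to 59127410, plus strand), had 44.5, 46.2 and 40.1 CPM with Doxy and 24.2, 25.8 and 26.4 CPM without. The level was 1.71-fold lower without Doxy (log2 −0.77 ± 0.0722 SE, adjusted p = 0.000247). FERMT1, an activator of integrins, fell from 120 ± 4.22 to 74.9 ± 5.25 CPM (SD, n = 3). SERPINA1, the antitrypsin gene, fell from 152 ± 19.3 to 97.9 ± 3.20 CPM. The replicative helicase subunit MCM6, the mitophagy receptor BNIP3 and the proliferation marker MKI67 also belonged to the 10 largest decreases and are described with their groups. P2RY1, a purinergic receptor, was 1.57-fold lower, the adaptor complex gene AP1S3 1.54-fold, GPAT3, an enzyme of glycerolipid synthesis, 1.54-fold, and FLRT3, an adhesion protein, 1.62-fold. FLRT3 lost its call when any library at 3% O2 except the third with Doxy was left out (highest adjusted p over all libraries 0.131). GPAT3 lost its call without the third library without Doxy (adjusted p = 0.0649).

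**Figure D3:**
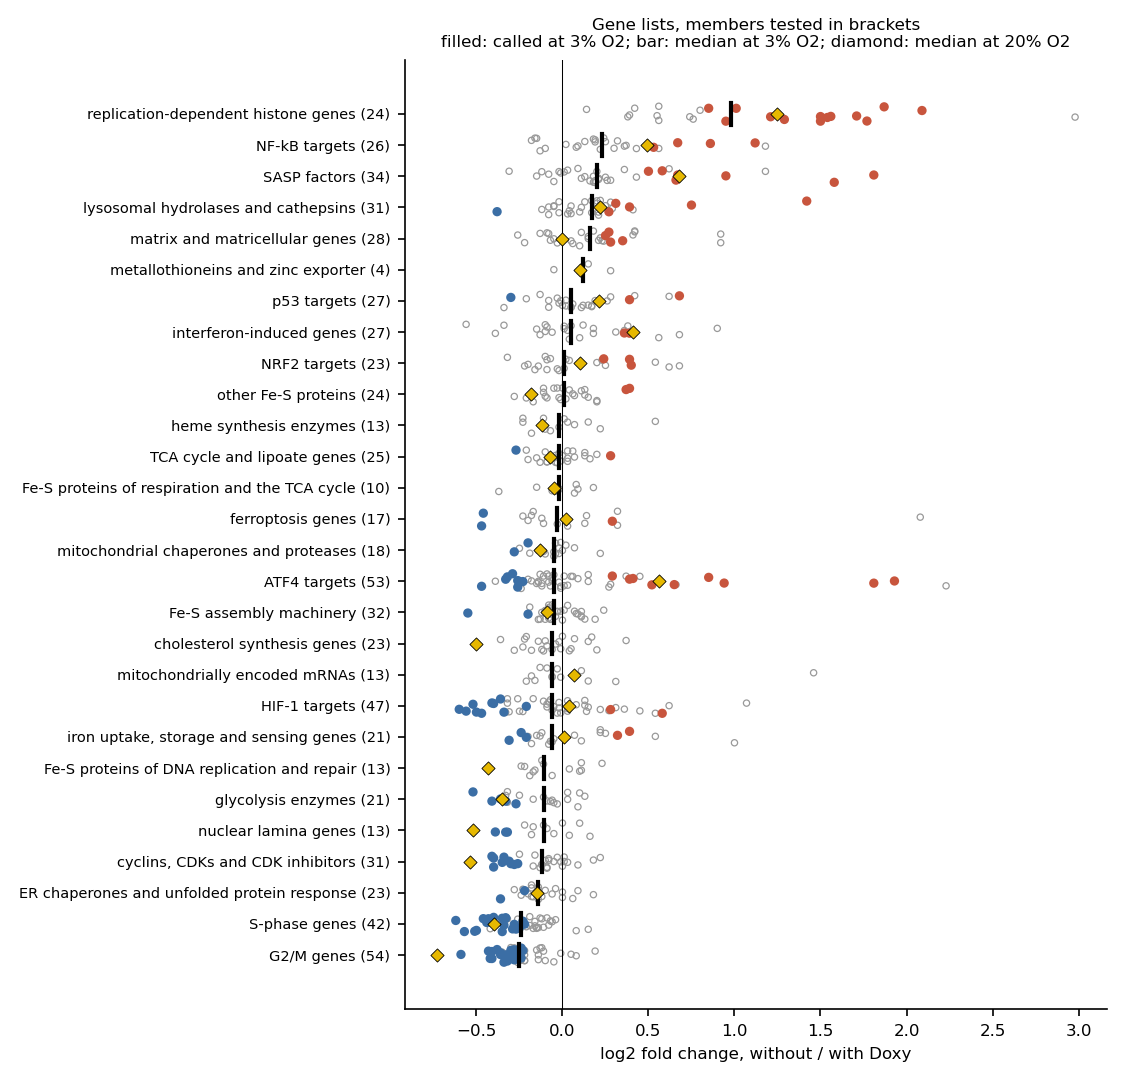
Each circle is a tested member of a gene list, placed by its log2 fold change without against with Doxy at 3% O2 and filled where called, with bars for list medians at 3% O2 and diamonds for those at 20% O2. G2/M genes have medians of −0.25 and −0.73, and ATF4 targets of −0.05 and 0.56.

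Of 42 tested S-phase genes (of 43 listed), 20 were lower without Doxy (47.6%, against the 3.11% of all genes) and 0 higher, with a median log2 fold change of −0.24. MCM6, part of the helicase that opens replication origins (chromosome 2, 135839626 to 135876426, minus strand), had 115, 121 and 116 CPM with Doxy and 78.5, 73.5 and 77.7 CPM without. It was 1.53-fold lower (log2 −0.62 ± 0.0470 SE, adjusted p = 7.07e-05), with no overlap between the groups. PCNA, the sliding clamp of DNA polymerases (chromosome 20, 5114953 to 5126626, minus strand), had 144, 148 and 137 CPM with Doxy and 102, 98.6 and 102 CPM without. It fell by 0.50 on the log2 scale (SE 0.0495, adjusted p = 0.000356), again with the groups apart. The uracil-DNA glycosylase gene UNG fell by 0.57 and WDR76 by 0.51. Relative to the libraries with Doxy, the list's median was −0.23, −0.28 and −0.21 in the 3 libraries without Doxy (log2 of CPM plus 0.5). Leaving out 1 library at 3% O2 left between 15 and 21 members lower, and the 6 libraries at 3% O2 fitted alone left 8.

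All 54 G2/M genes were tested, of which 25 were lower (46.3%) and 0 higher, with a median of −0.25 (−0.25, −0.28 and −0.23 in the 3 libraries without Doxy). MKI67, the gene of the Ki-67 antigen (chromosome 10, 128096659 to 128126385, minus strand), had 607, 616 and 742 CPM with Doxy and 445, 434 and 428 CPM without. The ranges did not overlap, and the gene was 1.50-fold lower (log2 −0.59 ± 0.0670 SE, adjusted p = 0.000702). BUB1, a kinase of the spindle checkpoint, fell from 171 ± 4.43 to 127 ± 5.91 CPM (SD, n = 3). GTSE1, expressed in G2 and S phase, fell by 0.41 and the kinetochore motor CENPE by 0.43 on the log2 scale. CENPE lost its call without the second library with Doxy (adjusted p = 0.0528). The number of lower G2/M genes was 10 without the second library with Doxy, 10 without the second library lacking it, and 16 without the first with Doxy. In the 6 libraries at 3% O2 fitted alone it was 3. The estimate was below 0 in 51 of the 54.

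The list of cyclins, CDKs and their regulators had 31 tested members of 33, with 9 lower and 0 higher (29% called, against 7.31% of all genes) and a median of −0.12. CCNB1, the cyclin of mitotic entry, had 330, 331 and 308 CPM with Doxy and 275, 233 and 250 CPM without. It fell by 0.35 (SE 0.0680, adjusted p = 0.0109) with no overlap, and of the 12 libraries only the second with Doxy ended its call when left out (adjusted p = 0.0629). CCNE1 and CCNE2, the cyclins of S-phase entry, fell by 0.41 and 0.40, and the mitotic kinase PLK1 by 0.40. These 3 lost their calls when any of several libraries was left out (highest adjusted p = 0.0965, 0.145 and 0.123), and 37.1% of the exonic bases of CCNE2 overlap another gene. The number of lower members was 5, 1 and 7 without the first, the second or the third library with Doxy, and 3, 2 and 4 without the first, the second or the third lacking it. CDKN1A, the CDK inhibitor p21, had 3.11, 3.74 and 5.59 CPM with Doxy and 4.51, 3.25 and 4.43 CPM without. These values overlapped (log2 −0.03 ± 0.204 SE, adjusted p = 0.950).

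Of 13 nuclear lamina genes, 3 were lower and 0 higher (23.1% called, against 7.31% of all genes), with a median of −0.11. Without the third library with Doxy 5 were lower and the median was −0.23. LMNB1, the gene of lamin B1, fell from 178 ± 9.66 to 135 ± 8.37 CPM (SD, n = 3; adjusted p = 0.00280), the chromatin protein gene HMGB2 by 0.33 and TMPO, of the nuclear envelope, by 0.32 on the log2 scale. Of 27 tested p53 targets (of 30), 2 were higher and 1 lower (11.1% called, against 7.31% of all genes), with a median of 0.05. TP53INP1, a stress-induced p53 cofactor, rose by 0.68. GADD45A (0.39) and MDM2, the ligase that degrades p53 (−0.30), lost their calls without the first library lacking Doxy (adjusted p = 0.109 and 0.122) and without most others.

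Promoters of G2/M genes often hold a cell cycle homology element, whose core is TTTGAA. Promoter sequences, from 250 bases before to 50 after the start of a gene, were taken from RefSeq (GRCh38.p14) and were found for 18 of the 25 lower and 27 of the 29 uncalled G2/M genes. The letters TTTGAA stood on either strand in 13 of the 18 (72.2%), in 20 of the 27 (74.1%) and in 4961 of all 27305 genes with a promoter (18.2%). The promoters of MKI67 and CCNB2, a mitotic cyclin that fell by 0.26, are shown because both hold it close to the start, at −29 to −24. MKI67 has another copy at −47 to −42. CCNB2 was named after its value was seen and lost its call without the first or second library of either group (highest adjusted p = 0.0871). Capitals mark the motif.
MKI67 (chr10:128126374-128126673, minus strand): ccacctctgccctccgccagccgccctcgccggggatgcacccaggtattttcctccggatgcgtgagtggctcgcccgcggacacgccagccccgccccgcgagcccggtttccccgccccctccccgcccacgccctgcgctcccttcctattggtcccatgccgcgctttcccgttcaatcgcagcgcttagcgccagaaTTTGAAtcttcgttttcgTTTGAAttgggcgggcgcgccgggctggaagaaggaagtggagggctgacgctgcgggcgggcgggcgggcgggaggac
CCNB2 (chr15:59104896-59105195, plus strand): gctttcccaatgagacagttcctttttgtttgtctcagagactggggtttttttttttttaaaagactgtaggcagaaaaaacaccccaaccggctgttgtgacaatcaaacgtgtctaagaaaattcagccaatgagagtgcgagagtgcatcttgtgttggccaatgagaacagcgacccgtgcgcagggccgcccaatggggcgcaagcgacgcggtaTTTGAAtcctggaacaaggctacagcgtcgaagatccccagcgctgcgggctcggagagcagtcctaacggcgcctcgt

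Some secreted factors of the senescence-associated secretory phenotype (SASP) rose. Of 34 tested (of 39 listed), 7 were higher (20.6%, against the 4.20% of all genes) and 0 lower, with a median log2 fold change of 0.20. MMP3, a matrix metalloproteinase (chromosome 11, 102835801 to 102843803, minus strand), had 57.9, 55.0 and 59.3 CPM with Doxy and 178, 169 and 168 CPM without. It rose 2.99-fold (log2 1.58 ± 0.0552 SE, adjusted p = 1.82e-07), and its groups were separated by far more than their spread. MMP1, a collagenase, had 3916, 4012 and 3688 CPM with Doxy and 6697, 5615 and 6009 CPM without (1.58-fold, adjusted p = 0.000241). GDF15, a stress-induced cytokine, rose 3.51-fold from a low level, 0.595 ± 0.163 to 2.11 ± 0.163 CPM (SD, n = 3). EREG, an EGF receptor ligand, rose 1.93-fold, and PLAT, the tissue plasminogen activator, 1.42-fold. IL1B, the cytokine interleukin-1 beta, had 14.1, 13.5 and 14.7 CPM with Doxy and 21.5, 21.8 and 23.9 CPM without. All values of IL1B without Doxy were above those with it (log2 0.67 ± 0.0680 SE, adjusted p = 0.000388). MMP1 and PLAT were named after their values were seen.

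Other SASP cytokines gave no call at 3% O2. CXCL8, a neutrophil chemokine, had 101, 107 and 86.7 CPM with Doxy and 100, 99.2 and 112 CPM without, which overlap (log2 0.09 ± 0.0940 SE, adjusted p = 0.627). IL1A was at 0.888 ± 0.101 and 1.19 ± 0.155 CPM (SD, n = 3; log2 0.43, adjusted p = 0.196), and IL6 at 0.159 ± 0.0329 and 0.364 ± 0.0383 CPM (log2 1.18 ± 0.453 SE, adjusted p = 0.148), a level of few counts. VEGFA, an angiogenic growth factor also on the HIF-1 list, was at 74.1 ± 10.6 and 75.7 ± 5.45 CPM (adjusted p = 0.879). Of 26 tested NF-kB targets (of 28), 4 were higher and 0 lower (15.4% called, against 7.31% of all genes), with a median of 0.23. The antiapoptotic gene BIRC3 rose from 5.91 ± 0.976 to 10.7 ± 0.451 CPM (log2 0.86, adjusted p = 0.00167). TRAF1, a signalling adaptor, rose by 1.12 and TNFAIP3, an inhibitor of NF-kB signalling, by 0.53. Both calls were lost without the first library with Doxy or the second without it (highest adjusted p = 0.0717 and 0.115), that of TNFAIP3 also without the second with Doxy or the third without it. The count of higher NF-kB targets was 2 without the first library with Doxy, 2 without the second lacking it and 6 without the third with Doxy. NFKBIA, which encodes the inhibitor of NF-kB, was 1.23-fold higher without reaching the threshold (adjusted p = 0.0590). Of 27 tested interferon-induced genes (of 34), IFIT3 (0.39) and IFITM3 (0.36) were higher, 0 were lower and the median was 0.05. Their share called, 7.41%, was close to the 7.31% of all genes. IFIT3 was not called without the second library with Doxy or the third without it (highest adjusted p = 0.0641), nor IFITM3, of whose exonic bases 21.3% overlap another gene, without the first with Doxy or the second without it (highest adjusted p = 0.0536).

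**Figure D4:**
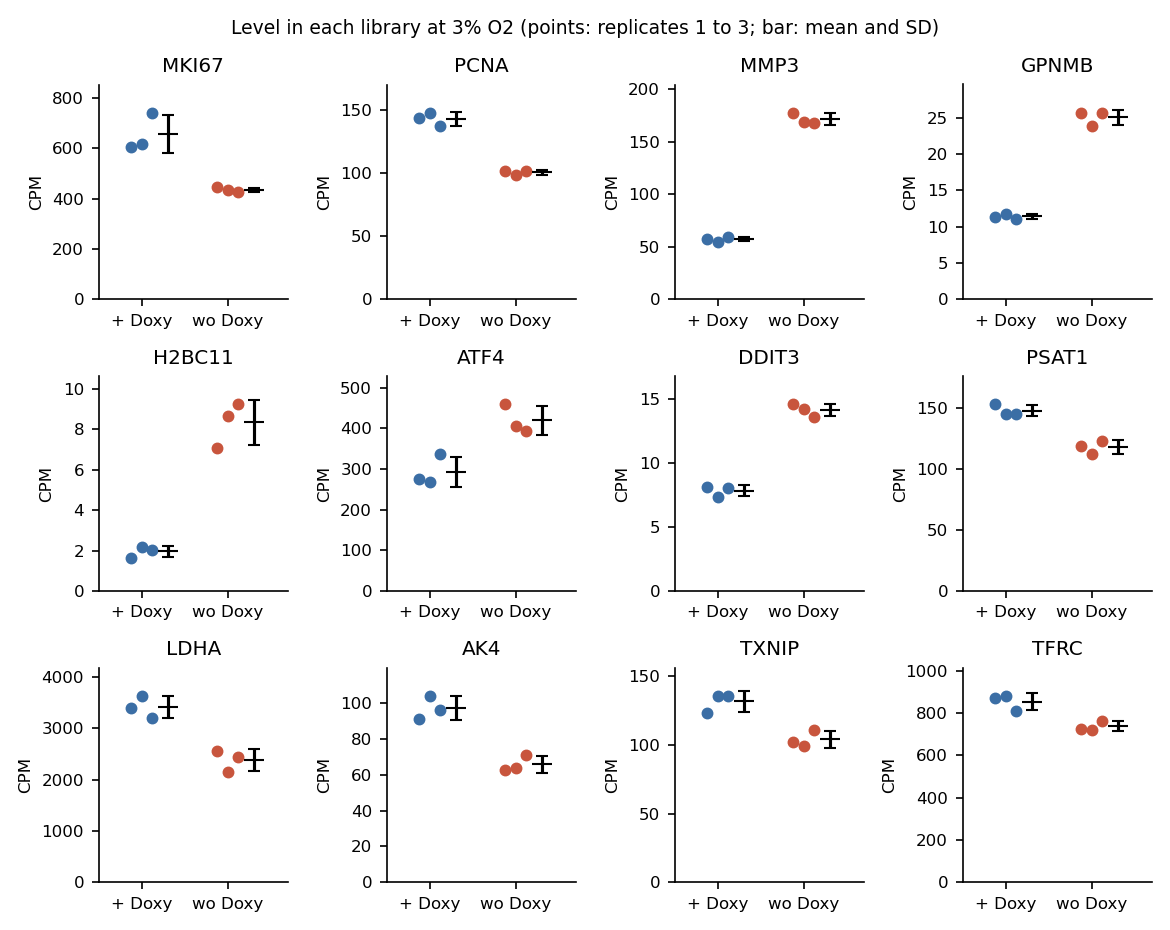
Levels of 12 genes (CPM, linear axis) in the 6 libraries kept with (+ Doxy) or without (wo Doxy) doxycycline at 3% O2, points being replicates and bars the mean and SD of 3. For each of these genes the libraries without Doxy lie apart from those with it, by a wide gap for MMP3 (168 to 178 against 55.0 to 59.3 CPM) and a narrow one for TFRC (722 to 764 against 809 to 883 CPM).

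Targets of ATF4, the transcription factor of the integrated stress response, were called in both directions. Of 53 tested (of 54), 9 were higher and 8 lower (32.1% called, against 7.31% of all genes), with a median of −0.05. Without any 1 of the 3% O2 libraries lacking Doxy, 5 were lower, as without the second library with Doxy at 20% O2. Without the third library with Doxy at 3% O2 the median was 0.05. Between 6 and 9 were higher whichever library was left out. ATF4 itself (chromosome 22, 39519695 to 39522685, plus strand) had 276, 268 and 336 CPM with Doxy and 460, 406 and 394 CPM without. Its groups did not overlap (1.43-fold, log2 0.52 ± 0.0908 SE, adjusted p = 0.00722). DDIT3, the proapoptotic factor CHOP, had 8.13, 7.33 and 8.05 CPM with Doxy and 14.6, 14.2 and 13.6 CPM without. It rose 1.80-fold (adjusted p = 3.90e-05) with clear separation, although 39.6% of its exonic bases overlap another gene. PPP1R15A, which directs the phosphatase that ends the stress response, rose from 93.7 ± 17.3 to 180 ± 12.3 CPM (SD, n = 3; 1.92-fold, adjusted p = 0.00280). NUPR1, a stress-induced chromatin protein, had 0.0648, 0.267 and 0.129 CPM with Doxy and 0.644, 0.516 and 0.593 CPM without. It was called higher, but reached the filter's level (0.338 CPM in at least 3 libraries) only through libraries without Doxy. CREBRF, a regulator of CREB3, rose 1.33-fold. The transcription factor ATF3 (0.65), SLC3A2 (0.29), GADD45A and GDF15 completed the higher members. ATF3 and SLC3A2, the heavy chain of amino acid transporters, lost their calls without the first library without Doxy (adjusted p = 0.0999 and 0.0553) and without other libraries.

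The lower ATF4 targets were enzymes of serine, folate and proline synthesis, aminoacyl-tRNA synthetases and a lipoprotein receptor. PSAT1, an enzyme of serine synthesis, had 153, 145 and 145 CPM with Doxy and 119, 112 and 123 CPM without. It fell by 0.33 (SE 0.0585, adjusted p = 0.00802), and the groups were apart. TARS1, the threonyl-tRNA synthetase, fell from 364 ± 1.11 to 297 ± 18.2 CPM and EPRS1, the glutamyl-prolyl-tRNA synthetase, from 347 ± 6.57 to 290 ± 9.86 CPM (SD, n = 3). YARS1 fell by 0.23, ALDH18A1, of proline synthesis, by 0.32, and the mitochondrial folate enzymes MTHFD1L and ALDH1L2 by 0.25 and 0.26. ALDH1L2 lost its call when any of several libraries was left out (highest adjusted p = 0.145). VLDLR, a lipoprotein receptor, fell by 0.47. ASNS, the asparagine synthetase, was at 1.14 ± 0.388 and 1.13 ± 0.248 CPM, a difference within the spread (adjusted p = 0.994). Of its exonic bases, 44.6% overlap another gene. YARS1 and MTHFD1L lost their calls without any of 4 and 6 of the libraries (highest adjusted p = 0.0814 and 0.125), and ALDH18A1 kept its call without each of the 12. PSAT1, TARS1, EPRS1, VLDLR, ALDH1L2, ATF3 and CREBRF were named after their values were seen, as were YARS1, ALDH18A1 and MTHFD1L. Of 23 ER chaperone and unfolded protein response genes, 2 were lower and 0 higher (8.70%, close to the 7.31% of all genes), and between 1 and 7 were lower whichever library was left out. HSPA5, the main ER chaperone, fell from 896 ± 7.74 to 700 ± 46.3 CPM (adjusted p = 0.00151) and HSP90B1 by 0.22 on the log2 scale. Of 18 mitochondrial chaperones and proteases, 2 were lower and 0 higher (11.1% called), and between 0 and 3 were lower whichever library was left out. HSPD1, the mitochondrial chaperonin, fell by 0.28 (adjusted p = 0.0115) and GRPEL1, a cofactor of protein import, by 0.20. HSPD1 was not called without the second library with Doxy (adjusted p = 0.0722), nor HSP90B1 and GRPEL1 without any of several libraries (highest adjusted p = 0.154 and 0.105).

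The core of the ATF4 response element, TGATGNAA, stood in the RefSeq promoters of 2 of 7 higher members (28.6%), 2 of 6 lower members (33.3%), 13 of 30 uncalled members (43.3%) and 1217 of all 27305 genes with a promoter (4.46%). Members of both directions are shown, SLC3A2 (higher, match at 38 to 45 after the start) and TARS1 (lower, match at 3 to 10), each with the motif on the reverse strand in capitals.
SLC3A2 (chr11:62881449-62881748, plus strand): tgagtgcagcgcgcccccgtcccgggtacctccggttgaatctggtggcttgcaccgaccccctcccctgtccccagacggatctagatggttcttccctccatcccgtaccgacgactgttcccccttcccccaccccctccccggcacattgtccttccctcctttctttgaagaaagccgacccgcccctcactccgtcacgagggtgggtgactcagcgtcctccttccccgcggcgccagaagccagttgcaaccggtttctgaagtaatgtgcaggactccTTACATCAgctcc
TARS1 (chr5:33440715-33441014, plus strand): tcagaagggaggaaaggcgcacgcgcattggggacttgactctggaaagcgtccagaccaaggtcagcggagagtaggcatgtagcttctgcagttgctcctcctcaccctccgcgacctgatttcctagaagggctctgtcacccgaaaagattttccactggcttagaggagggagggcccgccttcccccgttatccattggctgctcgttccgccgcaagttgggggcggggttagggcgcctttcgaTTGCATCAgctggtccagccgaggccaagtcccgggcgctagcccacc

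Of 47 tested HIF-1 targets (of 49 listed), 10 were lower and 2 higher (25.5% called, against 7.31% of all genes), with a median of −0.06. Leaving out 1 library gave between 8 and 12 lower members and medians from −0.14 to 0.00. The higher count was 0 without the first library with Doxy or the third without it, and 5 without the third with Doxy. BNIP3, a mitophagy receptor (chromosome 10, 131966455 to 131982013, minus strand), had 313, 356 and 362 CPM with Doxy and 210, 226 and 245 CPM without. All values without Doxy lay below those with it (1.51-fold lower, log2 −0.60 ± 0.0678 SE, adjusted p = 0.000685). AK4, a mitochondrial adenylate kinase, had 91.0, 104 and 95.8 CPM with Doxy and 62.4, 63.7 and 71.1 CPM without. It fell by 0.56 (SE 0.0671, adjusted p = 0.000936) with the groups apart. P4HA1, a collagen prolyl hydroxylase, fell from 143 ± 7.61 to 101 ± 8.48 CPM (SD, n = 3), PDK1, a kinase that inhibits pyruvate dehydrogenase, from 76.6 ± 4.16 to 58.0 ± 4.03 CPM, and the histone demethylase KDM3A from 97.5 ± 3.99 to 77.2 ± 5.42 CPM. KDM3A lost its call without the second library without Doxy (adjusted p = 0.0537). VLDLR, TFRC and the glycolytic genes LDHA, PGK1 and HK2 were the other lower members, and LOX was among the higher ones. CA9, carbonic anhydrase 9, had 40.4, 63.1 and 87.3 CPM with Doxy and 46.1, 59.2 and 83.8 CPM without, a wide spread with overlap (log2 −0.01 ± 0.250 SE, adjusted p = 0.986). Of its exonic bases, 38.5% overlap another gene. SLC2A3, a glucose transporter, was at 12.3 ± 0.884 and 11.8 ± 0.706 CPM (adjusted p = 0.676). P4HA1, PDK1 and KDM3A were named after their values were seen.

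Of 21 glycolysis genes, 5 were lower and 0 higher (23.8% called, against 7.31% of all genes), with a median of −0.11. LDHA, the lactate dehydrogenase subunit (chromosome 11, 18394388 to 18408425, plus strand), had 3393, 3641 and 3212 CPM with Doxy and 2560, 2156 and 2434 CPM without. Its lowest value with Doxy exceeded its highest without (1.43-fold lower, log2 −0.52 ± 0.0672 SE, adjusted p = 0.00133). PGK1, phosphoglycerate kinase, fell by 0.41, HK2, hexokinase 2, by 0.36, PGAM1, phosphoglycerate mutase, by 0.33 and the lactate transporter SLC16A1 by 0.27. LDHA, PGK1, HK2 and PGAM1 kept their calls whichever of the 12 libraries was left out. SLC16A1 lost its call without any of 7 libraries (highest adjusted p = 0.140) and was named after its value was seen.

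Of 32 tested genes of the Fe-S assembly machinery (of 34), 2 were lower, GRPEL1 among them, and 0 higher (6.25%, against 7.31% of all genes called in either direction). ISCU, the scaffold, had 39.2, 36.7 and 37.2 CPM with Doxy and 45.4, 36.5 and 37.6 CPM without, which overlap (adjusted p = 0.585). Of 13 tested Fe-S genes of DNA replication and repair 0 were called, and of 10 of respiration and the TCA cycle 0, with medians of −0.11 and −0.02. At an unadjusted p under 0.05 edgeR counted 5 and 3 of them, while DESeq2 called 2 and 1 and limma voom 6 and 3. The DNA polymerase genes POLD1 (52.2, 56.5 and 76.2 CPM with and 52.8, 78.7 and 67.2 CPM without Doxy) and POLE (131 ± 21.4 and 120 ± 13.7 CPM; SD, n = 3), SDHB of complex II (67.5 ± 1.49 and 66.6 ± 5.15 CPM) and NDUFS1 of complex I (161 ± 3.56 and 158 ± 5.72 CPM) had overlapping groups (lowest adjusted p = 0.621, for POLE). Of 24 other Fe-S protein genes (of 25) 2 were higher (8.33% called), AOX1 and DPYD. AOX1, an aldehyde oxidase, rose from 109 ± 3.60 to 142 ± 2.16 CPM (adjusted p = 0.000708) and DPYD, of pyrimidine breakdown, by 0.37. DPYD was not called without the first library with Doxy or the third without it (highest adjusted p = 0.0523).

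Of 21 tested iron genes (of 23), 2 were higher and 3 lower (23.8% called, against 7.31% of all genes). TFRC, the transferrin receptor, had 872, 883 and 809 CPM with Doxy and 727, 722 and 764 CPM without. It fell by 0.21 (SE 0.0520, adjusted p = 0.0332) without overlap between the groups. FTH1, the ferritin heavy chain, rose 1.31-fold, from 376, 390 and 412 CPM with Doxy to 469, 571 and 509 CPM without (adjusted p = 0.0211), with 62.4% of its exonic bases shared with another gene. CYBRD1, a ferric reductase, rose by 0.32, and the iron chaperones PCBP1 and PCBP2, whose exons overlap other genes by 52.2% and 32.7%, fell by 0.31 and 0.24. No iron gene was called without the first or second library with Doxy or the second without it, and the highest adjusted p of these genes was between 0.0784 for CYBRD1 and 0.144 for TFRC. ACO1, the cytosolic aconitase that also serves as an iron sensor, was at 96.6 ± 1.41 and 104 ± 4.53 CPM (adjusted p = 0.196). Of 13 genes of heme synthesis, transport and breakdown 0 were called (4 at an unadjusted p under 0.05 by edgeR, 2 called by DESeq2 and 4 by limma voom). HMOX1, a heme-degrading enzyme, was 1.45-fold higher without reaching the threshold (7.40 ± 1.30 and 10.7 ± 0.613 CPM, adjusted p = 0.0510), ALAS1, of the first step of heme synthesis, was at 55.3 ± 3.33 and 58.2 ± 0.783 CPM and FECH, of the last, at 16.7 ± 0.836 and 15.5 ± 0.156 CPM. The 13 mitochondrially encoded mRNAs gave 0 calls (3 at an unadjusted p under 0.05 by edgeR, 0 called by DESeq2 and 4 by limma voom), with a median of −0.06. Of 25 TCA cycle and lipoate genes, 1 was higher and 1 lower (8.0%, close to the 7.31% of all genes). SUCLG2, of succinyl-CoA synthetase, rose by 0.28 and FH, the fumarase gene, fell by 0.27, and both calls were lost without the second library with Doxy (highest adjusted p over all libraries 0.117 and 0.0895).

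NRF2 targets, which include antioxidant enzymes, had 3 of 23 tested members higher (of 24) and 0 lower (13% called, against 7.31% of all genes), with a median of 0.01. NQO1, a quinone reductase, had 101, 101 and 102 CPM with Doxy and 119, 119 and 121 CPM without. This small rise of 0.24 (SE 0.0395, adjusted p = 0.00551) was far larger than the spread between replicates, and 17.7% of its exonic bases overlap another gene. FTH1 and the transporter ABCC2 (0.40) were the others, and the call of ABCC2 was lost without any of 11 of the 12 libraries (highest adjusted p = 0.179). The number of higher members was 1 without the first or second library with Doxy or the second or the third without it, and 6 without the third with Doxy. NFE2L2, which encodes NRF2 and was named after its value was seen, fell by 0.24 (adjusted p = 0.0237), with 20.9% of its exonic bases overlapping another gene. It was not called without the first library without Doxy (adjusted p = 0.0539) or without several others. TGACNNNGC, the core of the antioxidant response element, stood on either strand in 0 of the 2 RefSeq promoters of higher members, in 6 of 14 of uncalled ones (42.9%) and in 4384 of all 27305 (16.1%). Of 17 tested ferroptosis genes (of 19), 1 was higher (SLC3A2, given above) and 2 lower (17.6% called, against 7.31% of all genes). The lower count was 1 without the second library of either group and 4 without the third with Doxy. SCD, the stearoyl-CoA desaturase (chromosome 10, 100347124 to 100364834, plus strand), had 396, 391 and 422 CPM with Doxy and 286, 288 and 308 CPM without. The groups were apart (1.37-fold lower, adjusted p = 0.000396). MBOAT1, a lysophospholipid acyltransferase, fell by 0.47 but was not called without the second library of either group (highest adjusted p = 0.0698). GPX4, which reduces lipid peroxides, was at 140 ± 20.0 and 155 ± 13.2 CPM (SD, n = 3; adjusted p = 0.503), and SLC7A11, the cystine transporter, at 20.4 ± 3.08 and 17.7 ± 1.34 CPM (adjusted p = 0.305).

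Of 57 replication-dependent histone genes 24 passed the filter on low counts, of which 13 were higher without Doxy and 0 lower (54.2% called, against 7.31% of all genes). Members that are low with Doxy passed this filter through the libraries without it, so the count is partly set by the filter. Of the 24, 20 reached the filter's level in at least 3 of the 6 libraries with Doxy at either oxygen level, a limit set after seeing the data, and of these 12 were higher and 0 lower. The median log2 fold change of the 24 was 0.98, and this and the list's other medians carry the same limit. In the 3 libraries without Doxy the list's median was 0.75, 0.74 and 0.81 above that with Doxy (log2 of CPM plus 0.5), and between 13 and 14 members were higher whichever library at 3% O2 was left out. These mRNAs normally end in a stem-loop instead of a poly(A) tail, and poly(A) RNA was selected here. H2BC15 had 2.91, 3.25 and 3.27 CPM with Doxy and 9.10, 8.77 and 8.73 CPM without, with the groups apart (2.82-fold, adjusted p = 1.61e-05), and was named after its values were seen. H4C8 rose from 0.704 ± 0.0975 to 2.32 ± 0.208 CPM (SD, n = 3; 3.28-fold, adjusted p = 0.00120) and H2BC17 3.42-fold from 0.361 ± 0.0801 CPM. H2BC7, which passed only through libraries without Doxy, had 0.0971, 0.115 and 0.162 CPM with Doxy and 0.523, 0.516 and 0.374 CPM without.

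Of 31 genes of lysosomal hydrolases and cathepsins, 5 were higher and 1 lower (19.4% called, against 7.31% of all genes), with a median of 0.17. CTSS, cathepsin S (chromosome 1, 150730196 to 150765957, minus strand), had 2.49, 2.37 and 2.00 CPM with Doxy and 6.64, 5.75 and 6.05 CPM without. It rose 2.68-fold (log2 1.42 ± 0.125 SE, adjusted p = 0.000166) with no overlap. CTSK, cathepsin K, rose 1.68-fold (25.6 ± 0.501 to 43.1 ± 1.73 CPM; SD, n = 3) and the peptidase TPP1 1.31-fold. NPC2, a carrier of cholesterol out of lysosomes, rose by 0.31 and PSAP, a precursor of sphingolipid activators, by 0.27 on the log2 scale, both named after their values were seen. These 2 lost their calls when any of several libraries was left out (highest adjusted p = 0.0611 and 0.116). CTSC, cathepsin C, was the lower member (1.30-fold, adjusted p = 0.00280). Without the first library with Doxy, or the second or the third without it, 3 members were higher, and 8 without the third with Doxy. Of 28 tested matrix genes (of 31), 4 were higher and 0 lower (14.3% called, against 7.31% of all genes). The collagen genes COL5A2 and COL12A1 rose by 0.35 and 0.27, LOX, which cross-links collagen, by 0.28 and the growth factor TGFB2 by 0.25. Without the first library with Doxy 0 matrix genes were called, and without the second or the third with Doxy 1 and 9 were higher. FN1, fibronectin, was at 726 ± 71.2 and 806 ± 5.12 CPM (adjusted p = 0.180). Of 23 tested cholesterol synthesis genes (of 24) 0 were called at 3% O2 (5 at an unadjusted p under 0.05 by edgeR, 3 called by DESeq2 and 10 by limma voom). Of 4 tested metallothionein and zinc exporter genes (of 8) 0 were called (0 at an unadjusted p under 0.05 by edgeR, 0 called by DESeq2 and 0 by limma voom), MT2A lying at 604 ± 117 and 645 ± 64.9 CPM.

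The response at 3% O2 was compared with that at 20% O2, where 5961 genes (35.3%) were called in the same fit. Time with or without Doxy also differed, 4 days at 20% and 3 days at 3% O2 against 6 days at 20% O2. Effects of oxygen and of this time cannot be told apart. The comparisons share no libraries, only the estimate of the spread. Of the 1235 genes called at 3% O2, 1039 (84.1%, or 17.4% of the 5961) were called in the same direction at 20% O2, 10 in the opposite direction and 186 (15.1%) were not called there. The size was smaller at 3% O2 in 837 of the 1039 (80.6%). A test of the difference between the responses called 1231 genes (7.29%), 542 with a more positive (3.21%) and 689 with a more negative change at 3% O2 (4.08%). Among the 1039, the difference was called in 291 with the smaller change at 3% O2 and in 1 with the larger. For G2/M genes the median was −0.25 at 3% and −0.73 at 20% O2, and the difference was called, positive, in 36 of 54. For S-phase genes the medians were −0.24 and −0.40, with 13 of 42 called. ATF4 targets had medians of −0.05 and 0.56, with 33 of 53 differences called negative and 1 positive. For SASP factors the medians were 0.20 and 0.68 (13 negative and 2 positive of 34), and for cholesterol synthesis genes −0.06 and −0.50 (11 positive of 23). HIF-1 targets had medians of −0.06 and 0.04, with 14 negative and 3 positive of 47. Histone genes had medians of 0.98 and 1.25, with 5 negative and 1 positive of 24. Of these 24, 4 did not reach the filter's level in at least 3 libraries with Doxy, so both medians are partly set by the filter. The total of called differences was 2191 without the third library with Doxy at 3% O2 and 520 without the third lacking it at 20% O2.

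Of the 10 genes with opposite calls, 8 were lower at 3% and higher at 20% O2. TXNIP, the thioredoxin-interacting protein that restrains glucose uptake, had 123, 136 and 136 CPM with Doxy and 102, 99.4 and 111 CPM without at 3% O2. At 20% O2 it had 66.3, 72.4 and 76.7 CPM with Doxy and 206, 203 and 209 CPM without. The groups were apart at both oxygen levels, in opposite order. Its log2 fold changes were −0.34 and 1.52, a difference of −1.86 ± 0.0952 (SE, adjusted p = 3.74e-06). PSAT1 fell by 0.33 at 3% and rose by 0.48 at 20% O2, where it had 160 ± 10.1 CPM with Doxy and 222 ± 5.08 CPM without (SD, n = 3). TFRC fell by 0.21 and rose by 0.40, from 460 ± 24.0 to 606 ± 16.4 CPM at 20% O2. VLDLR (−0.47 and 0.53), the arrestin-domain gene ARRDC4 (−0.47 and 0.91), the cholesterol exporter ABCA1 (−0.42 and 0.59), ALDH1L2 (−0.26 and 1.28) and the zinc finger gene ZNF28 (−0.33 and 0.29) shared this pattern. MST1 (0.68 and −0.77) and ENSG00000279207 (0.37 and −0.26) had the reverse. For all 10 the difference itself was called, which their choice by opposite calls made likely. At 3% O2, ARRDC4, ABCA1, ALDH1L2, TFRC, ZNF28 and MST1 lost their calls without the first library without Doxy (adjusted p = 0.0702, 0.0957, 0.112, 0.0894, 0.0813 and 0.0728), and TXNIP without the second library of either group (highest adjusted p = 0.0564), whereas VLDLR, PSAT1 and ENSG00000279207 kept theirs without each of the 12 libraries. ABCA1, ZNF28, MST1 and ENSG00000279207 were named after their values were seen.

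**Figure D5:**
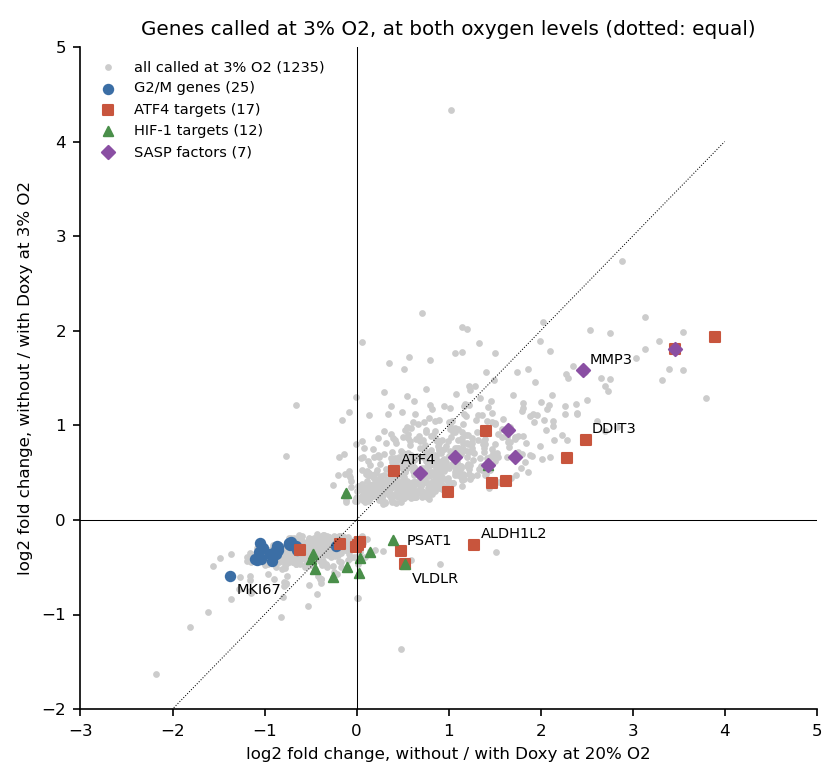
Each point is 1 of the 1235 genes called at 3% O2, placed by its log2 fold change without against with Doxy at 20% O2 (horizontal axis) and at 3% O2 (vertical axis), with called members of 4 lists in colour and a dotted line where both are equal. Most points lie on the same side of 0 at both oxygen levels, while PSAT1, VLDLR and ALDH1L2 lie below 0 at 3% and above 0 at 20% O2.

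A further 34 genes were called at 3% O2 and not at 20% O2 with a called difference, 20 lower and 14 higher. Of the lower ones, AK4 (difference −0.59), P4HA1 (−0.40), PDK1 (−0.44) and KDM3A (−0.48) are HIF-1 targets, and AK4 had 35.2 ± 1.00 and 36.0 ± 1.35 CPM (SD, n = 3) at 20% O2. LOX (difference 0.39) was the HIF-1 target among the higher ones, and its call at 3% O2 was lost without the first library with Doxy or the second or the third without it (highest adjusted p = 0.0651). TARS1 (difference −0.28), EPRS1 (−0.28) and NFE2L2 (−0.31) were also among the lower genes. ANKRD1, a transcriptional cofactor induced by YAP, had 23.6, 25.3 and 24.4 CPM with Doxy and 34.9, 34.9 and 35.9 CPM without. Its groups did not overlap (log2 0.53 ± 0.0501 SE, adjusted p = 0.000271), and at 20% O2 the estimate was 0.06. SLIT2, a secreted guidance factor, rose from 61.7 ± 1.63 to 78.8 ± 0.637 CPM and CPA4, a carboxypeptidase, from 1772 ± 106 to 2266 ± 90.0 CPM (SD, n = 3). ANKRD1, SLIT2 and CPA4 were named after their values were seen.

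Among protein-coding genes without overlap, with a mean of at least 5 CPM over the 12 libraries and no overlap between the groups at 3% O2, the largest negative differences from 20% O2 were those of PAPPA2, a protease that cleaves IGF-binding proteins (log2 −0.17 at 3% and 1.87 at 20% O2, adjusted p of the difference 1.77e-06), TXNIP, the sulfotransferase SULT1C2 (0.98 and 2.83), SAT1, of polyamine breakdown (0.85 and 2.29), and ARRDC4. SULT1C2 had 6.25, 5.73 and 5.85 CPM with Doxy and 12.2, 11.5 and 11.5 CPM without at 3% O2. Its fold was 1.98 (adjusted p = 0.000190). Negative differences of this size were also found at lower levels, among them for IL1A (−2.30) and NUPR1 (−1.97). Large positive differences under the same limits were found for SHISA3 (0.18 and −0.90), the mitotic gene FAM83D (−0.36 and −1.36), the helicase PIF1 (−0.28 and −1.20) and PSRC1, a spindle protein (−0.24 and −1.07). At 3% O2, SHISA3, PIF1, PSRC1 and PAPPA2 were not called (adjusted p = 0.375, 0.223, 0.150 and 0.129). FAM83D lost its call at 3% O2 without the second or the third library lacking Doxy (highest adjusted p = 0.0578).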

How the data were processed

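Bulk mRNA of FDX2-iKO ES2 cells was sequenced in 4 groups of 3 libraries, which the series design calls biological replicates. Poly(A) RNA was primed with random hexamers and sequenced on a DNBSEQ-T7. The authors aligned reads to GRCh38 with STAR and deposited raw featureCounts counts per gene. Versions, annotation release and strand setting are not given in the sources used here, so reads of overlapping or antisense genes may not be separable. GENCODE 29, which holds all 58735 identifiers, gave classes, coordinates and exon overlap, and symbols are current ones (41937 matched). The columns were matched to samples by the library names in the labels.

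The 12 libraries were fitted together with 4 group means in edgeR 4.0.16 (R 4.3.3), using TMM scaling, filterByExpr (minimum count 10, minimum total 15), the quasi-likelihood test and Benjamini-Hochberg adjustment. Of 32966 genes with a count, 16891 were tested, with 8 residual degrees of freedom. Genes with an adjusted p under 0.05 were called. CPM use TMM library sizes. Each SE was derived from the test, as the absolute log2 fold change divided by the square root of the F statistic, and was not estimated separately. Fold changes are without against with Doxy, and p-values rest on a spread estimated over all 12 libraries. Replicate noise was unequal between groups. The median chi-square per degree of freedom of replicate counts was 3.98 with and 3.30 without Doxy at 3% O2. At 20% O2 it was 4.54 with and 1.32 without Doxy. The test was checked on simulated counts with known 2-fold changes and, for each gene, the same spread in every group. These counts lacked the GC trends, the antisense excess and the unequal noise of the real libraries. The check therefore does not cover those features or smaller changes. limma 3.58.1 and DESeq2 1.42.0 served as alternatives, with other filters and scaling, a replicate block, each library left out in turn and, added after seeing the data, a correction for GC content.

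The members and lists were chosen with earlier results of these data known. Named genes were FDX2, the 10 largest increases and decreases among called protein-coding genes without exon overlap, a mean level of 5 CPM or more and groups that did not overlap, up to 4 called members of each list with the largest changes, a set of known members of the lists, and the 5 largest differences from 20% O2 each way. Some genes that this rule selects are not reported here. Others are said to have been named after their values were seen. Promoter sequences are from RefSeq (GRCh38.p14).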

Additional observations from a re-analysis of the deposited data

Results flagged for a closer look

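The response to FDX2 loss at 3% O2 differed from that at 20% O2 in 79 genes named in the text. Each was called by edgeR's test of the difference itself at an adjusted p under 0.05, as were 7.29% of all genes tested. Some of the 79 were named because their difference was among the largest, and others after their values were seen. Their number is thus no result about the genes named. IL1A, NUPR1 and ASNS, with large differences, lay at low levels at 3% O2. The values in parentheses are differences in log2 fold change, 3% minus 20% O2. No explanation was tested.

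Among ATF4 targets and stress genes the difference was negative for ASNS (−2.13), NUPR1 (−1.97), ATF3 (−1.65), DDIT3 (−1.64), ALDH1L2 (−1.54), SLC7A11 (−1.39), CREBRF (−1.21), GADD45A (−1.08), PSAT1 (−0.80), SLC3A2 (−0.71), TARS1 (−0.28) and EPRS1 (−0.28). The secreted factors and NF-kB targets with a negative difference were IL1A (−2.30), GDF15 (−1.64), CXCL8 (−1.15), IL1B (−1.05), TNFAIP3 (−0.92), MMP3 (−0.88), BIRC3 (−0.87), EREG (−0.70) and MMP1 (−0.42). IFIT3, an interferon-induced gene, had a difference of −0.67 and TP53INP1, a p53 target, of −1.22.

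HIF-1 targets and related genes with a negative difference were VEGFA (−1.33), VLDLR (−1.0), SLC2A3 (−0.85), AK4 (−0.59), KDM3A (−0.48), PDK1 (−0.44) and P4HA1 (−0.40). For the glucose-responsive arrestin genes the values were TXNIP (−1.86) and ARRDC4 (−1.38), and for genes of iron and heme TFRC (−0.61) and ALAS1 (−0.42). The detoxifying enzyme NQO1 and its regulator NFE2L2 differed by −0.54 and −0.31.

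Among the histone genes named, the difference was called for H4C8 (−1.32), H2BC15 (−1.16) and H2BC5 (−0.92), and among lysosomal genes for GPNMB (−1.27), CTSS (−1.27), TPP1 (−0.67), NPC2 (−0.54), PSAP (−0.44) and CTSK (−0.36). Other genes with a negative difference were PAPPA2 (−2.04), SULT1C2 (−1.84), SAT1 (−1.45), ABCA1 (−1.01), VCAM1 (−0.90), ZNF28 (−0.62) and SNAI2 (−0.44).

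Positive differences were found for cell cycle genes. In S phase these were MCM6 (0.29), PCNA (0.38) and FAM111B (0.37), and in G2 and mitosis CCNB2 (0.46), CENPE (0.50), BUB1 (0.66), GTSE1 (0.68), MKI67 (0.78), CCNB1 (0.80), PSRC1 (0.83), FAM83D (1.00) and PLK1 (1.08). The nuclear lamina genes were LMNB1 (0.80), HMGB2 (0.53) and TMPO (0.53). Other genes with a positive difference were ALDH18A1 (0.29), CPA4 (0.31), HSPD1 (0.35), LOX (0.39), SLIT2 (0.41), ANKRD1 (0.46), SCD (0.47), SERPINA1 (0.52), ENSG00000279207 (0.63), PIF1 (0.91), SHISA3 (1.07) and MST1 (1.45).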

How the results depend on the processing

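The number of called genes depended on the processing, and so did the share of them that were higher. Against 1235 genes at 3% O2 and 1231 for the difference from 20% O2, no filter on low counts gave 678 and 672, the DESeq2 Wald test 1925 and 1932, limma voom with quality weights 5348 and 6814, the protein-coding genes without overlap fitted alone 796 and 777, an adjusted p under 0.01 404 and 382 and a 2-fold minimum 118 and 186. Removing each library's trend on GC content, an alternative chosen after seeing the data, gave 2569 and 2784, and 2407 and 3309 with the first library without Doxy also left out. The 6 libraries at 3% O2 fitted alone gave 218 genes, all among the 1235. Most lists lost calls in that fit. Lower were 8 S-phase genes, 3 G2/M genes, 0 cyclin and CDK genes and 6 HIF-1 targets. Higher were 5 SASP factors, 1 NF-kB target, 3 lysosomal genes and 10 histone genes. Of the ATF4 targets 3 were higher and 1 lower, and of the iron and matrix genes 0 were called. Leaving out 1 of the 12 libraries gave 581 to 1645 genes at 3% O2 and 520 to 2191 for the difference, the extremes at 3% O2 coming without the second library with Doxy and without the first with Doxy at 20% O2. The share of higher genes was 57.4% at 3% O2, 43.6% by DESeq2 and 49.6% with DESeq2's size factors in edgeR. For the difference it was 44.0%, and 57.5% by voom and 64.1% with the GC correction. The cause was not tested.

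With the replicate number as a block, 676 genes were called at 3% O2 and 615 for the difference, 2009 and 2144 with the GC correction, and 1 in the 6 libraries alone. Deviations from the group means correlated across genes at 0.54, −0.63 and −0.08 between libraries with the same number, and not every library correlated best with its own number, so the numbers were not taken to pair the libraries. Under the block the estimate of CA9 was 0.01.

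None of the 120 genes named in the report as called at 3% O2 changed direction in any alternative that tested them. As genes called in these same data, they were likely to keep their direction. Of the 120, 70 were called whichever of the 12 libraries was left out. In the 6 libraries at 3% O2 fitted alone, 46 of the 120 stayed called and 74 did not. With the replicate block in those libraries 1 stayed called. Estimates that changed sign belonged to uncalled genes. With voom CDKN1A was at 0.24, ASNS 0.40, CA9 0.44, POLE 0.01, SDHB 0.03 and NDUFS1 0.00. With the GC correction, with and without the block, ASNS was at 0.01, POLD1 −0.02 and NDUFS1 0.02. With the GC correction and the first library without Doxy left out, ASNS was at 0.19, CA9 0.10, SLC2A3 0.02, SDHB 0.06 and NDUFS1 0.03. VEGFA was at −0.00 with no filter. With protein-coding genes without overlap alone, SDHB was at 0.00 and the median of mitochondrial chaperones at 0.01. Over the libraries left out in turn, the estimates ranged from −0.20 to 0.25 for CDKN1A, from −0.15 to 0.31 for ASNS, from −0.27 to 0.29 for CA9, from −0.05 to 0.15 for VEGFA, from −0.03 to 0.13 for ISCU, from −0.04 to 0.29 for POLD1, from −0.21 to 0.02 for POLE, from −0.08 to 0.04 for SDHB, from −0.05 to 0.00 for NDUFS1, from −0.05 to 0.21 for MT2A, and the median of Fe-S genes of DNA replication and repair from −0.16 to 0.01.

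At the threshold, POLH (log2 −0.27, adjusted p = 0.0499) was the last called and CDC5L (−0.25, adjusted p = 0.0502) the first not called. With 3 libraries a group, the common biological coefficient of variation was 16.3%.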
